A study of Homo sapiens with 12 samples.

Results

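HCT116 is a human colon cancer cell line that is available with p53 (p53+/+) and without it (p53-/-). Poly(A) RNA was sequenced from both lines after depletion of Mina53 (labelled KD) and after treatment with a scrambled control (labelled scr), in 4 groups of 3 libraries. The comparison described here set the 3 libraries of p53-/- cells depleted of Mina53 against the 3 libraries of p53+/+ cells depleted of Mina53. These 6 of the 12 libraries were chosen by the group in their titles, a rule that uses no measured value. Both groups therefore carried the depletion and differed in the labelled p53 genotype. The 6 scrambled controls, 3 per line, were used to show how the lines differed without depletion. Each genotype is 1 line, so loss of p53 and any other difference between the lines cannot be told apart. Sources used here do not give the reagent used for depletion, the time of harvest or the culture conditions, nor how the p53-/- line was made.

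p53 is a transcription factor that responds to DNA damage and to nucleolar stress. Its target CDKN1A encodes p21, an inhibitor of cyclin-dependent kinases, and p21 keeps the retinoblastoma family in complexes, among them the DREAM complex, that repress genes of replication and mitosis. Other p53 targets act in apoptosis, DNA repair and metabolism, and MDM2 closes a feedback loop by degrading p53. Mina53, the product of RIOX2, is an oxygenase of the JmjC family found in the nucleolus and is known to hydroxylate the ribosomal protein RPL27A.

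Values are FPKM, fragments counted per transcript length and per library, given as mean ± SD over n = 3 libraries. Differences are p53-/- minus p53+/+ on the log2(FPKM + 1) scale, on which differences of genes near 0 come out too small. A gene was called when the Benjamini-Hochberg adjusted p of limma, over 13728 genes with at least 1 FPKM in at least 3 libraries, was under 0.05. These genes are part of the 36615 in the table. Library totals ranged from 367549 to 370923 FPKM in depleted p53+/+ cells and from 352864 to 354992 in depleted p53-/- cells, and the number of reads behind them is unknown. The 13 mitochondrially encoded protein transcripts took 18.6% ± 0.737 of the total in depleted p53+/+ cells and 14.1% ± 0.284 in depleted p53-/- cells, against 14.1% ± 0.270 and 10.5% ± 0.476 in the controls. The correlation of log2 values over genes was at least 0.9925 between libraries of 1 group and lay between 0.9488 and 0.9526 between the depleted lines.

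RIOX2, the depleted gene, was at 3.04, 2.63 and 2.48 FPKM in the depleted p53+/+ libraries and at 2.11, 2.21 and 1.75 in the depleted p53-/- libraries. The groups did not overlap, and the p53-/- libraries were the lower ones (log2 difference -0.30, SE 0.070, adjusted p = 0.00255). In the controls the order was the opposite, with 7.49 ± 0.252 FPKM in p53+/+ and 9.09 ± 0.211 in p53-/- cells (log2 difference 0.25, adjusted p = 0.00802). The remaining RIOX2 thus differed between the lines that are compared, and the part of that difference in the results below was not tested.

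No separate check of the genotype labels is given here. Most of the p53 targets described below were lower in p53-/- libraries, but some were higher. The same values are reported as a result, so they are no independent check of the labels. The related oxygenase RIOX1 was at 3.36 ± 0.259 and 5.41 ± 0.516 FPKM (0.55, adjusted p = 7.01e-05). PRMT1, an arginine methyltransferase, was at 156.0 ± 6.10 and 180.7 ± 6.44 (0.21, adjusted p = 0.00126).

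Of the 8 genes taken to mark the line, EPCAM was at 84.3 to 86.9 FPKM in depleted p53+/+ and 88.4 to 95.8 in depleted p53-/- libraries. The simple epithelial keratin KRT19 was at 718 to 814 and 627 to 676. CDX2, the intestinal homeobox factor, was at 4.58 to 5.11 and 9.53 to 11.4. KRT8, KRT18 and CDH1 were measured in all 12 libraries, with CDH1 no lower than 5.24 FPKM. The enterocyte genes CDH17 and VIL1 did not exceed 0.0469 and 0.0363 FPKM in any library, so both lines had the epithelial markers of a colon line and lacked these.

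At the depleted state 8829 of 13728 genes differed between the lines, which is 64.3%. Of these, 5076 (37%) were higher and 3753 (27.3%) were lower in p53-/- cells. Most differences were small, since 5544 of the called genes differed by less than 0.5 and 780 by at least 1 on the log2 scale (373 higher, 407 lower). The libraries of the depleted groups did not overlap for 9281 genes, or 67.6%. In the controls 8701 genes (63.4%) differed, 556 of them by at least 1. Any count of members called in a gene list has to be read against these shares.

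The lines differed much the same way in both states, although the comparisons share no library. Of the called genes, 6166 went the same way in both, 3567 higher and 2599 lower in p53-/- cells. They were 69.8% of the calls at the depleted state and 70.9% of the calls in the controls. Another 408 genes were called in opposite directions and 2255 were called at the depleted state alone. The change of the difference, tested as the depleted difference minus the control difference, passed for 4511 genes (32.9%), with 2286 (16.7%) more positive and 2225 (16.2%) more negative at the depleted state. That split depends on scaling. After mitochondrial genes had been dropped and each library rescaled it was 1780 against 2819.

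Genes were placed in classes by both comparisons. In 1809 genes the difference was kept, meaning called the same way and at least 0.5 in both states (833 higher and 976 lower in p53-/- cells). In 499 genes it was open, meaning at least 0.5 and called at the depleted state and under 0.25 in the controls with the change itself called (318 higher, 181 lower). In 352 genes it was closed, the reverse case (181 higher and 171 lower in p53-/- controls). In 408 genes it was crossed, with opposite signs in both states and the change called (171 higher and 237 lower in depleted p53-/- cells).

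**Figure D1:**
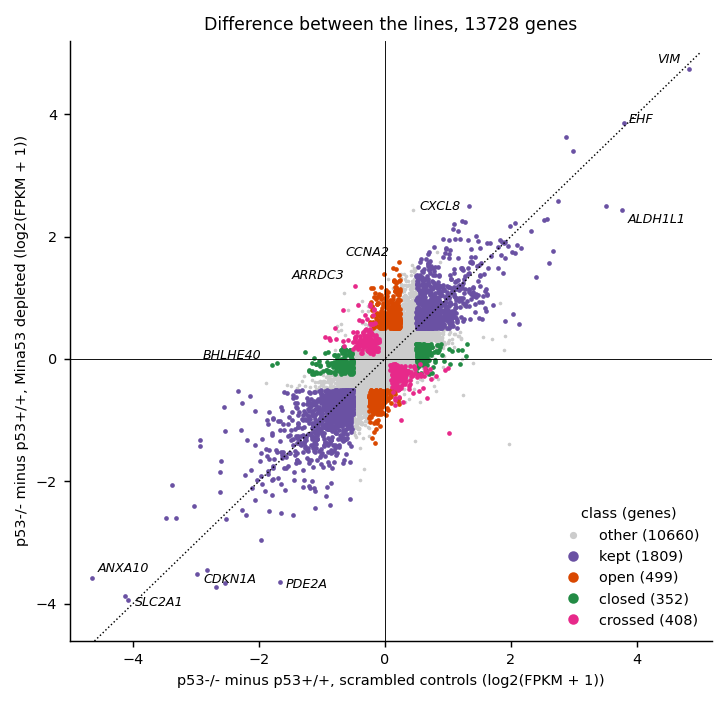
Each point is 1 of 13728 genes, with the difference p53-/- minus p53+/+ in scrambled controls on the x axis and after Mina53 depletion on the y axis, both as log2(FPKM + 1) means of 3 libraries per group. The dotted line marks equal differences; the 1809 kept genes lie in the quadrants of equal sign, on and off that line, the 499 open genes lie above and below the origin, the 352 closed genes lie left and right of it, and the 408 crossed genes lie in the quadrants of opposite sign.

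Of the 24 largest differences at the depleted state, 12 each way among called genes whose depleted groups did not overlap and averaged 5 FPKM or more in either line, all but that of CXCL8 were called the same way and were at least 0.5 in the controls as well. VIM, the intermediate filament of mesenchymal cells, was at 1.96, 2.30 and 1.66 FPKM in depleted p53+/+ cells and at 77.2, 75.9 and 81.3 in depleted p53-/- cells. No other gene that met the naming rule was higher by as much (log2 difference 4.74, SE 0.065, adjusted p = 1.99e-13), and its control difference was 4.83. EHF, an ETS factor of epithelial cells, was at 0.807, 0.591 and 0.596 against 23.5, 23.9 and 22.2 FPKM (3.86, adjusted p = 1.35e-12). Both genes were near their floor in every p53+/+ library and abundant in every p53-/- library.

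Other genes with large excess in p53-/- cells were the coiled-coil gene CCDC102B (3.63), the reductase DHRS2 (3.40), the ribose phosphate synthetase PRPS1 (2.58) and the receptor GPR15 (2.28). The uncharacterised transcript LOC101927202 differed by 2.27. KRTAP2-3, a keratin-associated protein gene with near-identical neighbours, differed by 2.50 and its value is uncertain. CCDC102B, DHRS2 and LOC101927202 were the 3 genes with at least 5 FPKM in depleted p53-/- cells and under 0.5 in depleted p53+/+ cells. CCN1, CXCL8, OAS3 and IFIT1, which also rank here, are described with their pathways.

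On the side of p53+/+ cells the glucose transporter SLC2A1 led, with 165, 176 and 178 FPKM against 9.79, 10.3 and 10.99 (log2 difference -3.94, SE 0.043, adjusted p = 3.61e-14). It was followed by the dipeptidase DPEP1 (-3.88), the heparan sulfate sulfatase SULF2 (-3.72), the adhesion molecule ICAM1 (-3.65), the cyclic nucleotide phosphodiesterase PDE2A (-3.64) and the annexin ANXA10 (-3.58). CDKN1A differed by -3.51 and the epithelial transcription factor GRHL3 by -3.44. LGALS7B, a galectin with a near-identical paralog and therefore an uncertain value, differed by -2.96. The peptidase DPP4, the ligand WNT16 and the hypoxia-induced NDRG1 differed by -2.62, -2.60 and -2.59.

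There were 7 genes with at least 5 FPKM in depleted p53+/+ cells and under 0.5 in depleted p53-/- cells. The 6 most abundant were DPEP1, SULF2, ICAM1, ANXA10, GRHL3 and the sialic acid receptor CD33, which was at 6.34 ± 1.06 against 0.325 ± 0.0695 FPKM. For some of the large differences the size changed with depletion. PDE2A differed by -1.67 in the controls and ICAM1 by -2.53, and both were further apart when depleted (changes -1.97 and -1.12, adjusted p = 3.82e-07 and 3.38e-06). ANXA10 moved the other way, from -4.65 to -3.58 (change 1.07, adjusted p = 7.27e-06). With a pseudocount of 0.1 that change did not pass (adjusted p = 0.0548).

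**Figure D2:**
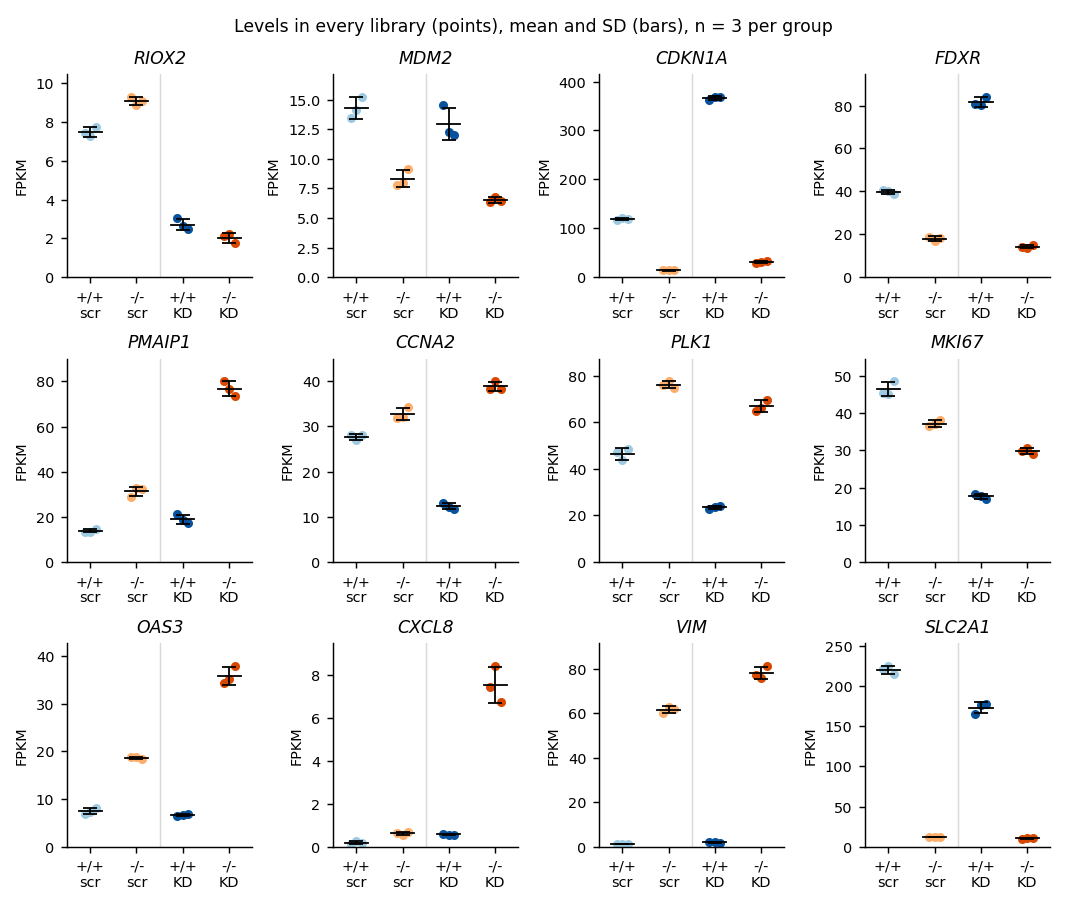
Each panel gives the FPKM of 1 gene in all 12 libraries (points), with the mean and SD of 3 libraries as bars, for scrambled controls (scr, left) and Mina53-depleted cells (KD, right) of p53+/+ and p53-/- genotype; every y axis starts at 0. CDKN1A and FDXR are high in depleted p53+/+ cells, CCNA2, OAS3 and CXCL8 are high in depleted p53-/- cells, and VIM and SLC2A1 differ by a similar amount in both states.

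Targets of p53 were lower in depleted p53-/- cells. Of 18 measured targets of the arrest and feedback group 13 were lower and 2 higher (median log2 difference -0.66, against 0.06 over all genes), of 18 of the death group 11 were lower and 4 higher (-0.58), and of 38 of the repair and metabolism group 32 were lower and 1 higher (-0.95). In the controls the medians were -0.68, -0.28 and -0.44. These lists hold genes picked in the literature as p53 targets, in part in HCT116 cells.

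CDKN1A was at 362, 369 and 369 FPKM in depleted p53+/+ cells and at 29.2, 31.9 and 32.5 in depleted p53-/- cells. The groups lay far apart (-3.51, SE 0.041, adjusted p = 4.72e-14), and the difference was larger than the -2.98 of the controls (change -0.53, adjusted p = 4.54e-05). In the same group BTG2, an antiproliferative factor, differed by -2.30, PHLDA3, an inhibitor of AKT, by -2.52, and FAM210B by -1.69. MDM2 was at 12.9 ± 1.38 and 6.53 ± 0.253 FPKM (-0.89, adjusted p = 6.48e-07). The members higher in p53-/- cells were GADD45B (0.96) and the repressor E2F7 (0.93).

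Among the death genes the order was mixed. BAX, which permeabilises the outer mitochondrial membrane, was at 84.8 ± 3.0 and 34.0 ± 2.81 FPKM (-1.29, adjusted p = 1.28e-08), and BIK, a BH3-only protein listed with the BCL2 family, differed by -1.23. AEN, an apoptosis nuclease, and TRIAP1 differed by -1.03 and -0.95, and both were further apart than in the controls (changes -0.79 and -0.57, adjusted p = 5.26e-06 and 1.35e-05). TNFRSF10D, a decoy receptor for TRAIL, differed by -0.97 in both states.

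PMAIP1, which encodes the BH3-only protein NOXA, ran against its group. It was at 21.1, 18.8 and 17.1 FPKM in depleted p53+/+ cells and at 80.0, 76.7 and 73.5 in depleted p53-/- cells, so that every p53-/- library was above every p53+/+ library (1.96, SE 0.071, adjusted p = 4.44e-10). Its control difference was 1.12, and the change of 0.84 passed (adjusted p = 8.60e-05). The other members of the death list higher in p53-/- cells were BCL2L1 (0.52), TNFRSF1A (0.48) and CASP6 (0.23). Membership does not say whether a gene promotes or restrains apoptosis.

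The repair and metabolism group held the targets whose difference grew most. FDXR, the ferredoxin reductase of mitochondria, was at 80.5, 80.3 and 84.2 FPKM against 14.2, 13.6 and 14.95 (-2.44, adjusted p = 2.37e-12). Its control difference was -1.1 and the change was -1.34 (adjusted p = 1.71e-07). CYFIP2, the damage recognition factor DDB2 and RPS27L differed by -2.54, -2.13 and -1.81. In this group the change was called more negative in 25 of 38 members and more positive in 2, and LIF was the 1 member higher in depleted p53-/- cells (0.65). GDF15, a stress cytokine induced by p53 and by other pathways, was at 1082 ± 77.2 and 574.1 ± 27.5 FPKM (-0.91, adjusted p = 9.93e-08).

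All 54 measured genes of G2/M and mitosis were higher in depleted p53-/- cells, with a median log2 difference of 1.14, and 40 of them differed by at least 1. In the controls 36 were higher and 2 lower, with a median of 0.25. The change was called more positive for 52 of the 54. In bulk RNA, a larger share of cells in these phases and more RNA per cell cannot be told apart.

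CCNA2, cyclin A2, was at 13.0, 12.1 and 11.8 FPKM in depleted p53+/+ cells and at 38.3, 39.9 and 38.3 in depleted p53-/- cells. The groups did not overlap (1.58, SE 0.044, adjusted p = 6.47e-11), while in the controls the means were 27.7 ± 0.669 and 32.7 ± 1.38 (0.23). The mitotic kinesin KIF20A differed by 1.75, the kinases PLK1 and AURKB by 1.47 each, CCNB1 by 1.21 and CDK1 by 1.01. The smallest differences in the list were those of CKS2 (0.27) and BUB3 (0.33).

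MKI67, the proliferation marker, was at 18.2, 17.8 and 17.0 FPKM against 29.7, 30.7 and 29.0 at the depleted state, the p53-/- libraries being higher (0.73, adjusted p = 1.66e-08). In the controls the p53-/- libraries were the lower ones, with 46.4 ± 1.83 in p53+/+ and 37.2 ± 0.942 in p53-/- cells (-0.31, adjusted p = 2.90e-05). CDC25C crossed in the same way (-0.28 in controls, 0.66 when depleted). MKI67 and CDC25C were the 2 members lower in the controls. That count was 5 with TMM-type scaling and 4 with median scaling.

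Genes of G1/S and replication were higher in 47 of 52 cases and lower in 2 (median 0.85, 0.46 in the controls). The helicase subunits MCM4, MCM5 and MCM3 differed by 1.16, 1.24 and 0.86, and the flap endonuclease FEN1 by 1.31. RRM2, of ribonucleotide reductase, was at 11.7 ± 0.409 and 22.5 ± 0.978 FPKM (0.88, adjusted p = 9.77e-09). The members lower in p53-/- cells were CCNE1 (-0.51), the cyclin that starts S phase, and E2F2 (-0.22), whose call was lost in 6 of 20 alternative settings. Of 29 genes of Fanconi anaemia and homologous recombination 26 were higher and 0 lower, among them EME1 (1.26), FANCG (1.09), FANCD2 (1.05) and FANCI (0.76), and the 3 others did not pass.

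Among 26 cell cycle inhibitors, G1 cyclins and members of the DREAM and E2F families, 21 were higher and 4 lower. CDKN1A had the largest negative difference. CDKN1B, which encodes the inhibitor p27, was instead higher in p53-/- cells, at 22.9 ± 0.771 against 9.51 ± 1.0 FPKM (1.19, adjusted p = 7.52e-09), and differed by 0.26 in the controls (change 0.93, adjusted p = 1.35e-05). MYBL2, the activator that replaces DREAM repressors on mitotic promoters, differed by 1.03, and TFDP1, the partner of E2F factors, by 0.65.

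Promoters of mitotic genes often carry the cell cycle homology region, TTTGAA, which DREAM and MYBL2 complexes bind. These letters were searched on both strands from 250 bases before to 50 bases after the start of each gene, in RefSeq sequences of GRCh38.p14. They were found in 32 of 45 promoters of the G2/M list (71.1%), against 912 of 9934 promoters of measured genes (9.18%). By class, they were in 67 of 249 promoters of open genes higher in p53-/- cells (26.9%) and in 6 of 137 of open genes lower in them (4.38%). Kept genes higher in p53-/- cells had them in 71 of 613 promoters (11.6%) and kept genes lower in them in 52 of 677 (7.68%). Closed genes lower in p53-/- controls had them in 15 of 116 (12.9%), and those higher in 5 of 130 (3.85%). Crossed genes higher in depleted p53-/- cells had them in 12 of 135 (8.89%), and those lower in 15 of 198 (7.58%). A match is a description of the letters, not a binding site. The windows of 5 members are shown because their difference became more positive on depletion, with the motif in capitals, TTTGAA on the gene's own strand.
PLK1 (chr16:23678850-23678875, plus strand, first motif base at -29 from the start): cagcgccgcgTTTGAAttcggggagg
HMMR (chr5:163460594-163460619, plus strand, at -28): tgtggggagaTTTGAAtttgaaaccg
MKI67 (chr10:128126437-128126462, minus strand, at -29): ttcgttttcgTTTGAAttgggcgggc
CDK1 (chr10:60778160-60778185, plus strand, at -161): gtataataaaTTTGAActgtgccaat
TOP2A (chr17:40418075-40418100, minus strand, at -194): agtggtgcctTTTGAAgcctctctag
In PLK1, HMMR and MKI67 the motif begins 28 or 29 bases before the start, and in CDK1 and TOP2A it lies further away. In HMMR a second copy follows directly. MKI67 held a further match at -47, and TOP2A held a further match at -151 in the reverse orientation.

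Interferon-stimulated genes were higher in depleted p53-/- cells in 35 of 37 measured cases, with a median of 1.17 and 24 members past 1. The list has 48 members, and 11 did not pass the filter on low values, so these shares describe the measured members alone. A gene low in p53+/+ cells can pass that filter through p53-/- libraries alone, which can raise the share of higher members and the median. In the controls 26 were higher and 2 lower (median 0.50), and the change was more positive for 29 and more negative for 0.

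OAS3, which makes the 2-5A messenger that activates RNase L, was at 6.52, 6.74 and 6.85 FPKM in depleted p53+/+ cells and at 34.3, 35.3 and 37.9 in depleted p53-/- cells. The p53-/- libraries were higher throughout (2.26, SE 0.054, adjusted p = 1.67e-11), as in the controls (1.22). IFI6, an interferon-induced membrane protein, was at 22.6, 25.1 and 24.4 against 91.9, 90.7 and 105.8 (1.95, adjusted p = 2.19e-10). IFIT1, which binds foreign RNA ends, was at 0.785 ± 0.0544 and 7.24 ± 0.162 (2.21), and its p53+/+ values were below 1 FPKM in each library.

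ISG15, a ubiquitin-like modifier, was at 123.7 ± 11.1 and 248.9 ± 14.9 FPKM (1.0, adjusted p = 3.44e-07). The ubiquitin ligase DTX3L differed by 1.63. IFI27 was called at the depleted state (1.15), and its control difference did not pass (-0.22, adjusted p = 0.148). The members lower in p53-/- cells were UBE2L6 (-0.66), the conjugating enzyme for ISG15, and the nuclease ISG20 (-0.32, adjusted p = 0.0491), whose call was lost in 12 of 20 alternative settings.

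The core of the interferon-stimulated response element, which STAT and IRF factors recognise, is GAAA followed by any 2 bases and GAAA again. It was searched on both strands of the same windows and found in 20 of 30 promoters of this list (66.7%), against 255 of 9934 (2.57%). By class, it was in 7 of 249 promoters of open genes higher in p53-/- cells (2.81%), 1 of 137 of open genes lower in them (0.73%) and 36 of 613 of kept genes higher in them (5.87%). Kept genes lower in p53-/- cells had it in 13 of 677 (1.92%). Closed genes higher in p53-/- controls had it in 4 of 130 (3.08%), and those lower in 3 of 116 (2.59%). Crossed genes higher in depleted p53-/- cells had it in 1 of 135 (0.74%), and those lower in 2 of 198 (1.01%). Windows of 4 members that differed in the depleted lines are shown, with the motif in capitals.
IFI6 (chr1:27672329-27672358, minus strand, at -156): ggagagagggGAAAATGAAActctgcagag
OAS3 (chr12:112938452-112938481, plus strand, at -12): agccgggcggGAAAACGAAAccagaaatcc
DTX3L (chr3:122564322-122564351, plus strand, at -6): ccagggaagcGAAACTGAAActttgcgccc
ISG15 (chr1:1013380-1013409, plus strand, at -107): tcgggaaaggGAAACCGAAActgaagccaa
IFI6 held 2 further matches nearer to its start, at -115 and -93. OAS3 held a further match at -143, and ISG15 held a further match at -113, overlapping the match shown. Factor binding was not measured here.

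**Figure D3:**
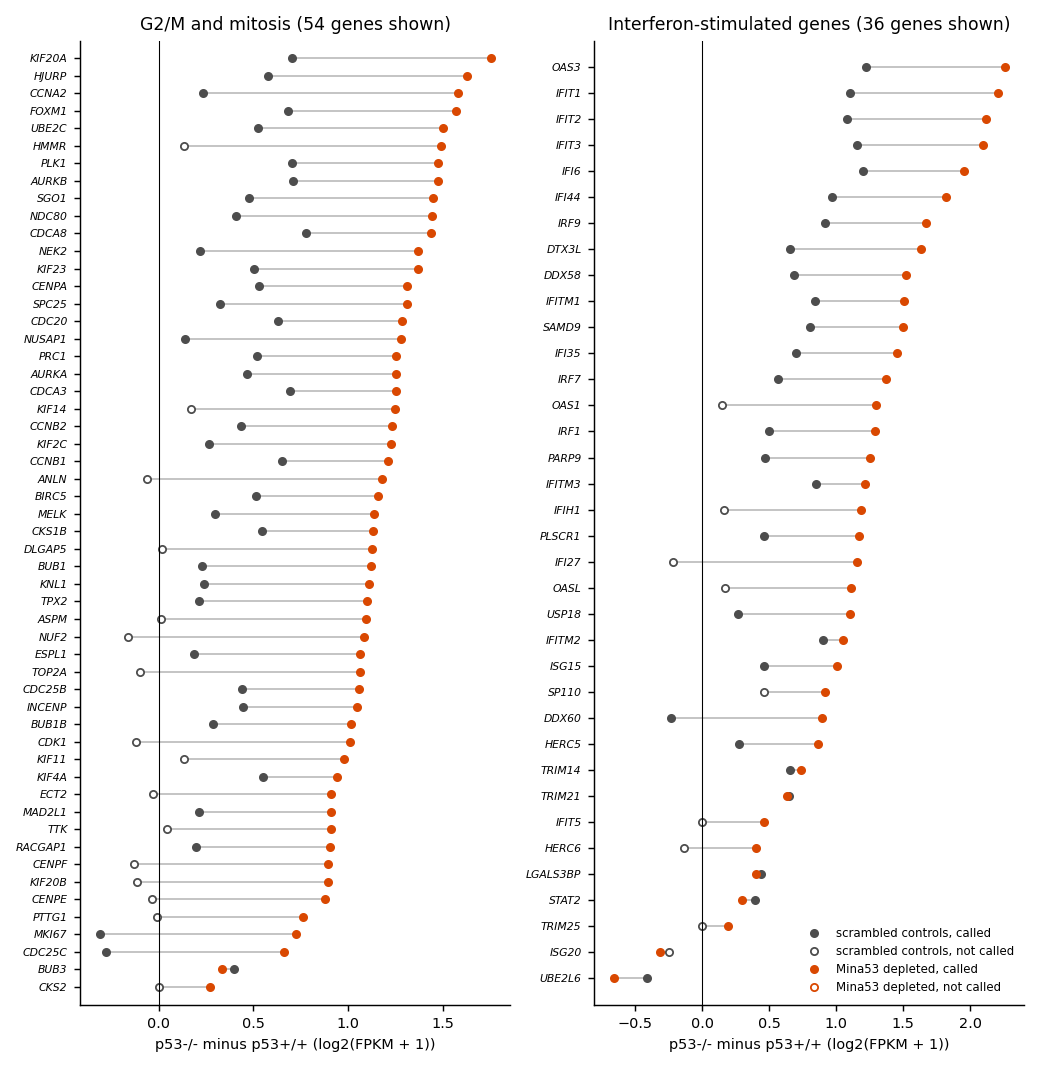
For the measured members of 2 lists, all 54 of the mitotic list and all but 1 of the 37 of the interferon list, the difference p53-/- minus p53+/+ (log2(FPKM + 1)) is given in scrambled controls (grey) and after Mina53 depletion (orange), filled where called and open where not. All 54 mitotic genes lie right of 0 when depleted, and all interferon-stimulated genes shown but ISG20 and UBE2L6 do, most of them further right than in the controls.

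Antigen processing and NF-kB genes were measured beside the interferon list. Of 18 genes of MHC class I and antigen processing 13 were higher and 1 lower. PSME2, an activator of the proteasome, differed by 0.90, the peptide loading factor TAPBP by 1.27, the peptide transporter TAP2 by 0.82 and B2M, the light chain, by 0.63. Reads of some genes in this list may be split between near-identical copies and alleles.

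Of 21 NF-kB targets and chemokines 17 were higher and 2 lower (median 0.42). The list has 30 members, and the others did not pass the filter on low values. CXCL8, the chemokine that attracts neutrophils, was at 0.588, 0.561 and 0.555 FPKM in depleted p53+/+ cells and at 7.45, 8.42 and 6.76 in depleted p53-/- cells (2.44, SE 0.083, adjusted p = 2.83e-10). In the controls it stayed below 1 FPKM in both lines with a difference of 0.45 (change 1.99, adjusted p = 7.25e-07). CXCL8 thus passed the filter through the depleted p53-/- libraries alone, and its place in the count rests on its level there. The inhibitor of apoptosis BIRC3 differed by 1.38 and was at -0.01 in the controls, and TNFAIP2 differed by 0.57. ICAM1 ran the other way, at 12.1, 12.9 and 12.4 against 0.117, 0.0418 and 0.0454 FPKM, and EBI3, a cytokine subunit, differed by -1.77.

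Hypoxia and glycolysis genes were lower in p53-/- cells, and less so when depleted than in the controls. Of 25 genes of glycolysis and glucose uptake 19 were lower and 3 higher (median -0.36, against -0.85 in the controls), and the change was more positive for 18 and more negative for 2. Of 27 other targets of hypoxia-inducible factors 22 were lower and 2 higher (median -0.83, against -1.64), and the change was more positive for 24 and more negative for 1.

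LDHA, lactate dehydrogenase, was at 307, 323 and 329 FPKM against 227, 239 and 227 at the depleted state (-0.46, adjusted p = 4.20e-07), and at 627.9 ± 25.8 against 274.3 ± 3.18 in the controls (-1.19). The groups remained apart, and the gap was smaller (change 0.73, adjusted p = 2.92e-06). PFKFB4, ALDOC, the collagen hydroxylases P4HA1 and PLOD2, and NDRG1 differed by -1.15, -1.66, -1.33, -1.31 and -2.59, and each by more in the controls. CA9, the carbonic anhydrase used as a hypoxia marker, was at 2.58, 3.36 and 3.82 FPKM in depleted p53+/+ cells and was listed at 0, 0 and 0.0249 in depleted p53-/- cells. Its change (1.32) was not called with a pseudocount of 0.1 (0.75, adjusted p = 0.0751).

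Not every member followed. SLC2A1 differed by -4.07 in the controls, and its change of 0.13 did not pass (adjusted p = 0.119). The related transporter SLC2A3 went the other way, at 2.68, 2.48 and 2.86 against 11.8, 10.7 and 10.8 FPKM (1.72, adjusted p = 1.38e-09). VEGFA, the angiogenic factor, was slightly higher in depleted p53-/- cells (5.94 ± 0.170 against 7.89 ± 0.627 FPKM, 0.36). BHLHE40, a clock and hypoxia factor, had little difference left and is described with the closed genes.

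**Figure D4:**
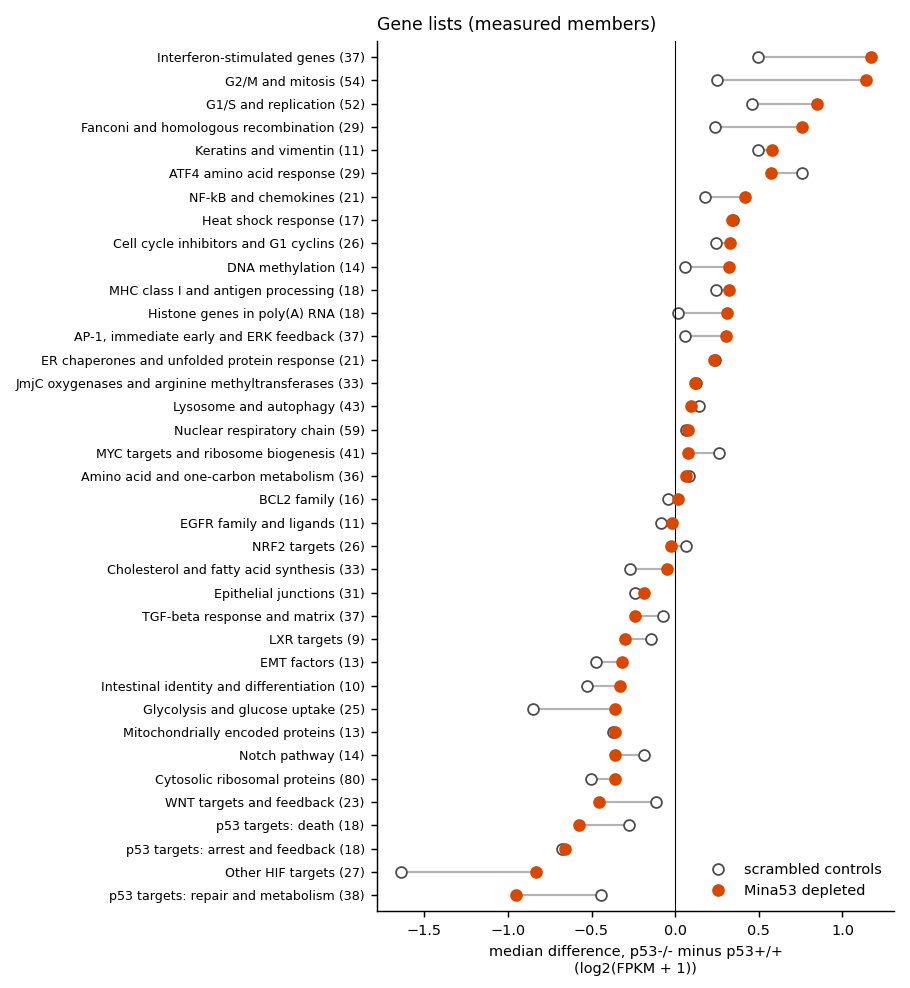
For each gene list with at least 9 measured members (number in brackets), the median difference p53-/- minus p53+/+ on the log2(FPKM + 1) scale is given in scrambled controls (open) and after Mina53 depletion (filled). Interferon and mitotic genes stand highest when depleted, at 1.17 and 1.14, and the HIF targets moved from -1.64 to -0.83.

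Stress responses of translation and protein folding differed in both states. Of 29 genes of the ATF4 amino acid response 23 were higher and 4 lower in depleted p53-/- cells (median 0.57, 0.76 in the controls). DDIT3, which encodes CHOP, was at 6.81, 6.92 and 7.03 FPKM against 30.7, 29.6 and 32.2 (2.01, SE 0.047, adjusted p = 1.26e-11). The serine synthesis enzyme PHGDH, the amino acid transporter subunit SLC3A2 and the alanyl-tRNA synthetase AARS1 differed by 1.53, 1.17 and 0.95, much as in the controls (1.5, 1.23 and 0.82).

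Of 17 heat shock genes 14 were higher and 3 lower, with HSPB1 at 594.8 ± 67.1 and 1180 ± 37.6 FPKM (0.99) and the co-chaperone STIP1 at 0.36. HSPA1B differed by 0.90, and its reads may be shared with its near-identical copy. HSPD1, the mitochondrial chaperonin, was lower (-0.63). Without depleted p53-/- replicate 2 the count of lower members was 1. Of 21 ER chaperone genes 13 were higher and 3 lower, including HSPA5 (BiP) at 0.58 and HYOU1 at -0.45.

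Genes of the ribosome were lower in p53-/- cells. Of 80 cytosolic ribosomal protein genes 72 were lower and 0 higher (median -0.36, -0.51 in the controls), with RPL12 at -0.69, RPL5 at -0.54 and RPL4 at -0.56. RPL27A, the known substrate of Mina53, was at 128.7 ± 1.37 and 104.1 ± 3.01 FPKM (-0.30, adjusted p = 3.08e-06), close to its control difference (-0.41, change 0.10, adjusted p = 0.0873). Single values are uncertain here, since pseudogene copies of these genes can take up reads. MYC was at 82.2 ± 2.39 and 39.1 ± 1.70 FPKM (-1.05, adjusted p = 6.06e-10). Its targets and ribosome biogenesis factors did not go 1 way, with 17 of 41 higher and 8 lower, and 14 higher and 16 lower with TMM-type scaling. CDK4 differed by 0.40 and BOP1 by -0.58.

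Mitochondrially encoded protein transcripts were lower in p53-/- cells in 11 of 13 cases and higher in 0. COX2 and COX3 differed by -0.75 and -0.66, ATP6 by -0.53 and CYTB by -0.46. Of 59 nuclear genes of the respiratory chain 27 were higher and 9 lower, and with TMM-type scaling 19 and 19, so no direction holds for them. ATP5PO, NDUFB6 and SDHD differed by 0.42, 0.60 and 0.44 and NDUFS1 by -0.50.

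Lipid genes were divided. Of 33 genes of cholesterol and fatty acid synthesis 10 were higher and 14 lower, but the change was more positive for 18 and more negative for 0. SREBF2, a regulator of sterol genes, differed by -0.91 and the acetyl-CoA carboxylase ACACA by -0.59. Of 9 LXR targets 3 were higher and 6 lower, including APOE (-1.80), LPCAT3 (-0.82) and ABCG1 (-1.11). Of 26 NRF2 targets 9 were higher and 12 lower, with AKR1C3 at -1.63, HMOX1 at -0.77 and the repressor KEAP1 at 0.63.

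Of 11 genes of the epidermal growth factor family and its ligands 3 were higher and 5 lower. The ligand EREG was higher in depleted p53-/- cells (1.05). AREG, amphiregulin, was at 330.2, 329 and 334 FPKM against 92.8, 94.4 and 92.1 (-1.82, adjusted p = 3.56e-12), and TGFA differed by -1.14. EGFR itself was lower in depleted p53-/- cells (-0.54) and higher in the p53-/- controls (0.14), with a change of -0.68 (adjusted p = 1.04e-05). The call in the controls was lost with TMM-type scaling and without p53-/- control replicate 2 or 3 (adjusted p = 0.0840, 0.0507 and 0.0561). Of 37 immediate early and ERK feedback genes 25 were higher and 9 lower. The matricellular CCN1 was at 3.18 ± 0.124 and 22.5 ± 1.08 FPKM (2.49, 1.33 in the controls), the early response factor EGR1 differed by 1.19, and KLF10 by 0.87.

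Of 23 WNT targets 14 were lower and 6 higher, with the feedback inhibitor NKD2 (-2.07) and BAMBI (-1.51) lower and BMP4 (0.51) higher. Of 14 Notch pathway genes 10 were lower and 2 higher, including the receptors NOTCH3 (-1.48) and NOTCH1 (-0.72), the ligand JAG1 (-0.63) and HES2 (-1.06). Of 37 genes of TGF-beta response and matrix 20 were lower and 13 higher. ID2, an inhibitor of differentiation factors, was at 161.0, 165 and 167 FPKM against 27.6, 27.9 and 26.2 (-2.55, adjusted p = 2.77e-13), and the protease inhibitor SERPINB5 differed by -2.10.

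Epithelial genes were not all lower where VIM was high. Of 31 junction genes 18 were lower and 8 higher, with P-cadherin CDH3 at -1.13, E-cadherin CDH1 at -0.85, desmoplakin DSP at -0.67 and the desmocollin DSC2 at 0.87. Of 11 genes of keratins and vimentin 6 were higher and 3 lower. Keratins KRT80 and KRT81 were higher (1.97 and 2.25) and KRT18 was lower (-0.49). KRT81 has near-identical neighbours, and its value is uncertain. Among 13 factors of epithelial and mesenchymal state 8 were lower and 4 higher. GRHL3, FOXC1, OVOL1 and ELF3 differed by -3.44, -1.32, -1.04 and -0.39. Of 37 intestinal genes 33 were in the table and 10 passed the filter on low values, of which 2 were higher and 6 lower. A gene low in 1 line can pass that filter through the other line alone, which bears on these counts. HNF4A was at 2.82, 3.69 and 3.54 FPKM against 0.0395, 0.0764 and 0.0498 (-2.04), so in the depleted lines only its p53+/+ libraries reached 1 FPKM. KLF4 differed by -1.18. CDX2 was higher (0.98) and differed by 0.21 in the controls.

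Chromatin and metabolic lists had members called in both directions, except the DNA methylation list. Over all genes 64.3% were called, 37% higher and 27.3% lower, and list shares near these are no result about the list. Of 33 JmjC oxygenases and arginine methyltransferases 15 were higher and 6 lower, with the histone demethylases KDM4B, KDM3A and KDM5B at -1.15, -0.87 and -0.73 and KDM6A at 0.59. Of 14 DNA methylation genes 9 were higher and 0 lower, including UHRF1 (0.93) and DNMT1 (0.55), and 2 were lower under TMM-type scaling. Of 18 histone genes 10 were higher and 6 lower, with H2AZ1 at 0.69, H2BC12 at -1.13 and H2BC5 at -1.64. Of 36 amino acid and one-carbon genes 14 were higher and 10 lower, or 11 and 13 with TMM-type scaling. ALDH1L1 was at 0.0136 ± 0.0127 and 4.47 ± 0.241 FPKM (2.43), and in the depleted lines only its p53-/- libraries reached 1 FPKM. Of 43 lysosome and autophagy genes 20 were higher and 7 lower, with NPC2 at 0.87 and CTSB at -0.68. Of 16 BCL2 family genes 5 were higher, among them BCL2L12 (1.02), and 5 lower.

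Open genes differed between the depleted lines and little between the controls. HMMR, a spindle protein, was at 5.22, 4.95 and 3.997 FPKM in depleted p53+/+ cells and at 15.5, 15.8 and 13.7 in depleted p53-/- cells (1.49, control difference 0.14). Most of the others with the largest changes were mitotic, namely CCNA2, NUF2 (1.08), ANLN (1.18), the condensin subunit SMC4 (1.02) and the topoisomerase TOP2A (1.06). The small MAF factor MAFF (1.47) and IFI27 completed the list.

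On the lower side, MSX1, a homeobox factor, was at 89.2, 92.4 and 90.0 FPKM against 42.0, 38.1 and 41.7 (-1.14, SE 0.067, adjusted p = 2.44e-08). The control means were 41.9 ± 0.901 and 38.3 ± 4.41, a difference that did not pass (-0.13, adjusted p = 0.1001), and the change was -1.01 (adjusted p = 1.46e-05). The control difference passed under TMM-type scaling and without p53-/- control replicate 2. NINJ1, which ruptures the membrane of dying cells, differed by -0.92 and was at 0.01 in the controls. The lysosomal activator GM2A, the kinesin KIF5C, NDRG4 and ENC1 differed by -0.83, -1.04, -0.88 and -0.80. SNORA9, a small nucleolar RNA within a host gene whose reads may be counted for it, differed by -0.73.

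Closed genes differed between the controls and little between the depleted lines. BHLHE40 was at 12.7, 13.9 and 14.2 FPKM against 12.5, 12.6 and 12.6 when depleted, next to each other without overlap (-0.10, adjusted p = 0.0565). The control means were 20.6 ± 0.638 and 5.24 ± 0.0603 (-1.79, adjusted p = 2.02e-11), and the change was 1.68 (adjusted p = 1.78e-08). Its depleted difference passed under TMM-type scaling, median scaling, with mitochondrial genes left out and without depleted p53+/+ replicate 1, at -0.17, -0.16, -0.13 and -0.15. Keratin KRT7 (control difference -1.70), FRRS1 (-1.13), the noncoding RNA MIR100HG (-0.95) and the glycosyltransferase B3GNT5 (-0.90) closed in the same direction.

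Other genes closed from above. The copper chaperone ATOX1 was at 71.0, 68.3 and 77.3 against 68.7, 67.3 and 68.0, with overlap (-0.08), and differed by 1.04 in the controls. PCSK7, TMEM104 and VWA1 differed by 0.76, 0.91 and 0.65 in the controls and by -0.13, 0.06 and -0.17 when depleted. The antisense transcript VPS9D1-AS1 closed as well (1.19 to -0.09), but its reads may not be separable from those of its partner. The depleted differences of PCSK7, VWA1 and VPS9D1-AS1 passed under TMM-type and median scaling, and that of VWA1 also with mitochondrial genes left out and without depleted p53+/+ replicate 1.

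Crossed genes changed the line in which they were higher. ARRDC3, an arrestin-related protein, was at 4.50, 5.03 and 4.25 FPKM against 11.8, 12.7 and 11.02 when depleted (1.2, adjusted p = 6.02e-08), and at 9.82 ± 1.08 against 6.74 ± 0.349 in the controls (-0.48, adjusted p = 0.000186). INSIG1, the sterol-regulated anchor of SREBP, was at 12.6, 12.2 and 14.02 against 25.05, 23.3 and 21.7 (0.80), and differed by -0.66 in the controls. KLF10, EMP1, DSC2 and SCG2 crossed in this direction, with changes of 1.30, 1.29, 1.11 and 1.1.

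In the other direction, DUSP6, the phosphatase that shuts off ERK, was at 56.1, 55.3 and 56.2 FPKM against 40.3, 40.2 and 39.1 when depleted (-0.48, SE 0.032, adjusted p = 6.62e-08). In the controls the p53-/- libraries were higher, with means of 42.1 ± 1.53 and 64.9 ± 0.197 (0.61, adjusted p = 1.02e-08). RGS16, an inhibitor of G protein signalling, was at 7.01, 5.93 and 5.92 against 2.79, 2.53 and 2.61 (-1.0) and differed by 0.26 in the controls. PLK2, a stress-induced kinase, differed by -0.28 and 0.81. CHPF and CPA4, with depleted differences of -0.19 and -0.15, crossed by small amounts, and their calls at the depleted state were lost in 4 and 7 of 20 alternative settings.

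**Figure D5:**
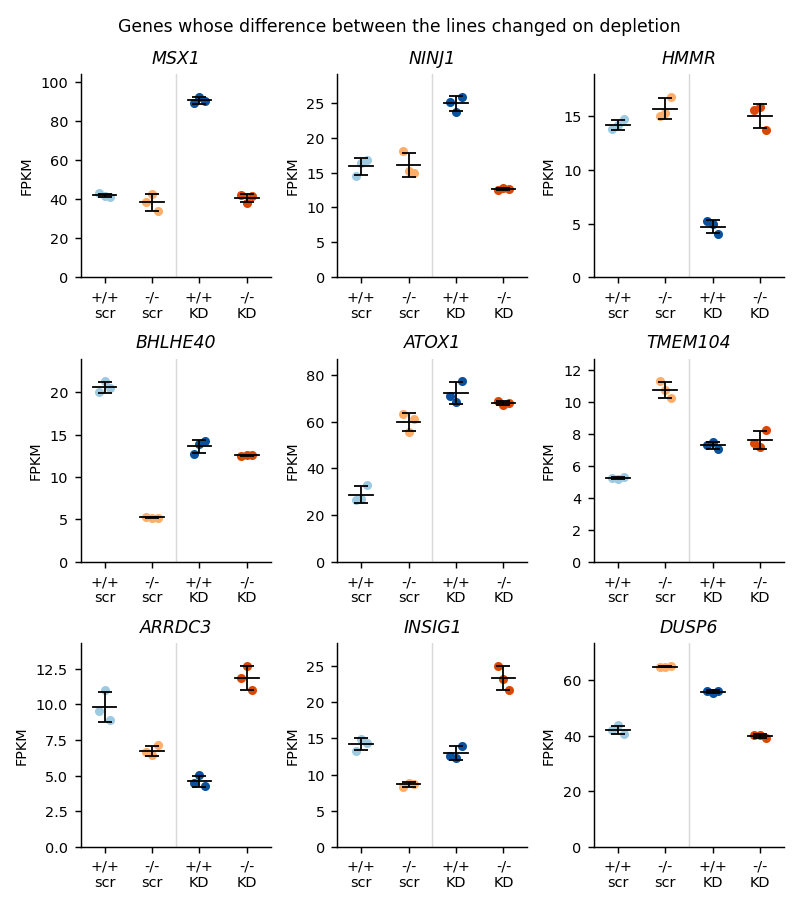
Each panel gives the FPKM of 1 gene in all 12 libraries (points) with the mean and SD of 3 libraries as bars, in scrambled controls (scr) and Mina53-depleted cells (KD); every y axis starts at 0. In MSX1, NINJ1 and HMMR the lines separate on depletion, in BHLHE40, ATOX1 and TMEM104 they converge, and in ARRDC3, INSIG1 and DUSP6 the higher line is exchanged.

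PRF1, which encodes perforin of cytotoxic lymphocytes, was at 53.5 ± 1.60 and 17.0 ± 0.287 FPKM in the depleted lines (-1.60, adjusted p = 1.06e-10). Most of the listed markers of other cell types, which do not include PRF1, did not pass the filter on low values. Of 52 such markers in 6 lists, some had no symbol in the deposited table and could not be measured. In all, 9 were measured at 1 FPKM or more in at least 3 libraries, and no endothelial marker was. The summed fibroblast markers ranged from 10.2 to 10.7 FPKM in depleted p53+/+ and from 11.7 to 12.2 in depleted p53-/- libraries, with COL1A1 providing most of it. COL1A1 was called (0.15, adjusted p = 0.0120), and the call was lost with TMM-type and with median scaling. The summed immune markers were at 4.72 to 5.83 and 7.34 to 8.59, with CD68 (0.68) the 1 member measured. The summed erythroid markers were at 2.83 to 3.70 and 0.756 to 1.85, and the neuronal ones at 3.11 to 3.25 and 3.15 to 3.36. The endothelial sums were at 0.154 to 0.351 and 0.272 to 0.615, and those of kidney and liver lines at 5.67 to 6.45 and 2.82 to 3.28. The part of these markers in the results was not tested.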

How the data were processed

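RNA-seq of 12 libraries in 4 groups of 3 was used, and the 6 libraries of Mina53-depleted cells gave the main comparison. The authors deposited 1 table with a value per gene symbol and library. Its values were read as FPKM, normalized by the authors, from their size and totals. Per the submitters' processing notes, hg19 was the genome build. Sources used here do not give the aligner, quantifier, annotation or strand setting. The depth behind an FPKM value is unknown, so no counting interval is given. All 12 columns were matched to samples by name, and 0 value columns were left unmapped. Nothing says that the 3 libraries of a group came from separate cultures, so the p-values rest on a spread between libraries that could be technical.

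Values were transformed as log2(FPKM + 1), and 13728 genes with at least 1 FPKM in at least 3 libraries were kept. limma 3.58.1 in R 4.3.3 fitted 1 mean per group over all 12 libraries, with a variance trend, moderated tests and 8 residual degrees of freedom. Benjamini-Hochberg adjustment ran over all 13728 genes, with a threshold of 0.05 and two-sided p-values. The fit was run on simulated data with independent noise of the size seen between these libraries. Such data cannot show whether that spread is technical.

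Members of 43 gene lists were matched by symbol, 1196 of 1212 entries directly, 1 by an older symbol and 15 not at all. The comparison, the lists and the naming rule were chosen with earlier results of these data known, and lists are described by counts and medians without a set test. Genes were named by rule: RIOX2; the 12 largest non-overlapping differences each way with at least 5 FPKM; the 8 largest changes each way among open, closed and crossed genes; the 6 most abundant genes of 1 line; up to 4 members of each list with the smallest p; and 20 genes fixed by name. Members that ran against their list or the others named from it, the smallest G2/M differences and the marker genes of the line were named after their values were seen. Some genes that the rule names are not reported here. Promoter sequences came from RefSeq on GRCh38.p14, a build other than that of the table, and were matched by symbol.

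The alternatives were a pseudocount of 0.1, no filter on low values, only the groups compared, TMM-type scaling, median scaling, mitochondrial genes left out, no variance trend, the replicate number as a block, and leaving out each library.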

Additional observations from a re-analysis of the deposited data

Results flagged for a closer look

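The results listed here were picked out because the difference between the lines was not the same in both states: the depleted difference minus the control difference passed in limma with an adjusted p under 0.05, which 32.9% of all genes tested did. Values are that change on the log2(FPKM + 1) scale, p53-/- minus p53+/+, positive where the p53-/- cells were relatively higher after depletion. Groups of 3 libraries are too small to be tested for single outlying libraries. Only genes named in the sections above were considered, so the groups below need not hold every member whose change passed. No explanation of these changes was tested.

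Among the p53 targets named above, the positive changes were those of PMAIP1 (0.84), GADD45B (0.60) and TGFA (0.30). It was more negative for FDXR (-1.34), PLK2 (-1.1), CYFIP2 (-1.09), NINJ1 (-0.93), FAM210B (-0.88), PHLDA3 (-0.87), AEN (-0.79) and BAX (-0.69). More negative changes were also those of GDF15 (-0.60), TRIAP1 (-0.57), DDB2 (-0.55), CDKN1A (-0.53), RPS27L (-0.51), LIF (-0.41), CASP6 (-0.25) and BTG2 (-0.24). The call of CASP6 was lost in 9 of 20 alternative settings and that of BTG2 with a pseudocount of 0.1. Of BCL2 family genes, which are not in these lists, BIK changed by -0.75 and BCL2L12 by 0.26, the latter with its call lost in 8 settings.

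Among genes of mitosis, replication and repair, the positive changes were those of CCNA2 (1.35), HMMR (1.35), ANLN (1.24), NUF2 (1.24), TOP2A (1.16), CDK1 (1.13), KIF20A (1.05), MKI67 (1.04) and CDC25C (0.94). It was also more positive for CDKN1B (0.93), MYBL2 (0.91), PLK1 (0.77), AURKB (0.76), MCM4 (0.75), FANCI (0.71), FEN1 (0.67), MCM5 (0.63) and FANCD2 (0.59). Further positive changes were those of CCNB1 (0.56), FANCG (0.45), EME1 (0.42), UHRF1 (0.41), MCM3 (0.39), CKS2 (0.27), RRM2 (0.23) and TFDP1 (0.21). A more negative change was found for CCNE1 (-0.64).

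Among interferon, antigen processing and NF-kB genes, the positive changes were those of CXCL8 (1.99), BIRC3 (1.40), IFI27 (1.37), IFIT1 (1.11), OAS3 (1.03), DTX3L (0.98), IFI6 (0.75), ISG15 (0.55) and TNFAIP2 (0.50). A positive value was also found for B2M (0.30). The negative changes were those of ICAM1 (-1.12) and EBI3 (-0.79).

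Among hypoxia and glycolysis genes, the positive changes were those of BHLHE40 (1.68), CA9 (1.32), PFKFB4 (1.13), SLC2A3 (1.03), KDM3A (0.97), ALDOC (0.93), NDRG1 (0.88), P4HA1 (0.86) and LDHA (0.73). Smaller positive changes were those of PLOD2 (0.64) and VEGFA (0.32).

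Among genes of stress responses, ribosomes, mitochondria and lipids, the positive changes were those of INSIG1 (1.46), DDIT3 (0.56), SREBF2 (0.46), SDHD (0.43), RPL12 (0.37), NDUFB6 (0.36) and RPL4 (0.21). Next came RPL5 (0.20). Changes below 0 were those of APOE (-1.48), HSPD1 (-0.45), HMOX1 (-0.41), HYOU1 (-0.40), AKR1C3 (-0.39), HSPA1B (-0.37), BOP1 (-0.34) and CYTB (-0.11). The calls of CYTB and AKR1C3 were lost in 13 and 10 of 20 alternative settings.

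Among signalling genes, the positive changes were those of KLF4 (1.36), KLF10 (1.30), CCN1 (1.16), EREG (0.82), EGR1 (0.47) and AREG (0.30). More negative values were found for DUSP6 (-1.09), SERPINB5 (-0.91), NKD2 (-0.87), JAG1 (-0.79), EGFR (-0.68), HES2 (-0.49), NOTCH1 (-0.41), BMP4 (-0.38) and ID2 (-0.34). More negative changes were also those of NOTCH3 (-0.26).

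Among epithelial genes and their factors, the positive changes were those of KRT7 (1.64), ELF3 (1.5), DSC2 (1.11), KRT80 (1.05), KRT81 (0.97), CDX2 (0.77), EPCAM (0.37), OVOL1 (0.34) and CDH1 (0.20). The calls of OVOL1 and CDH1 were lost in 14 and 9 of 20 alternative settings. Negative values were those of FOXC1 (-0.66), GRHL3 (-0.61), CDH3 (-0.55), KRT18 (-0.33) and DSP (-0.16).

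Among the other genes named, the positive changes were those of ARRDC3 (1.68), EMP1 (1.29), MAFF (1.29), SMC4 (1.18), FRRS1 (1.15), SCG2 (1.1), ANXA10 (1.07), MIR100HG (1.04) and B3GNT5 (1.02). Positive too was the change of CCDC102B (0.75), WNT16 (0.72), CD68 (0.58), KDM4B (0.50), NPC2 (0.43), KDM6A (0.41), DNMT1 (0.37) and H2AZ1 (0.20). Below 0 were the changes of PDE2A (-1.97), ALDH1L1 (-1.33), VPS9D1-AS1 (-1.27), RGS16 (-1.26), CHPF (-1.15), CPA4 (-1.15), ATOX1 (-1.12), SULF2 (-1.04) and KRTAP2-3 (-1.02). More negative changes were also those of MSX1 (-1.01), LGALS7B (-1.0), SNORA9 (-0.95), PCSK7 (-0.89), GM2A (-0.89), KIF5C (-0.87), NDRG4 (-0.85), TMEM104 (-0.85) and ENC1 (-0.84). Further negative changes were those of VWA1 (-0.82), PRF1 (-0.58), RIOX2 (-0.55), CTSB (-0.45) and H2BC12 (-0.27).

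The changes of LGALS7B and EBI3 had the opposite sign with a smaller pseudocount, and the values are given with the other effects of the processing.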

How the results depend on the processing

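All counts of called genes stayed within 1.5 times of those reported under the 20 alternative settings. Genes called at the depleted state numbered between 8128 and 8849 when 1 library was left out, 9946 with no filter on low values, 8682 with TMM-type scaling (4290 higher, 4392 lower) and 8691 with median scaling (4383 higher, 4308 lower). The excess of higher over lower calls is therefore a matter of scaling. For the change of the difference, the counts were 3805 to 4428 when 1 library was left out and 4599 with mitochondrial genes left out (1780 higher, 2819 lower). The replicate block gave 8627, 8520 and 4139 calls for the depleted, control and change comparisons. Same-numbered libraries of the depleted lines had deviations from their group means correlated by 0.0273, 0.0244 and 0.156. Of the 3 depleted p53+/+ libraries, 2 were closest to the p53-/- library of their own number. With 3 libraries per group these values cannot decide whether the numbers pair the libraries.

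Of 206 genes named and tested, 6 lost their call at the depleted state in at least 1 setting (CHPF, COL1A1, CPA4, E2F2, ISG20 and KRT8), 6 gained one and 0 changed direction. In the controls 8 lost the call (CDX2, EGFR, EREG, JAG1, KDM6A, KIF5C, MYBL2 and PRMT1), 9 gained one and 0 changed direction. For the change, 15 lost the call, 12 gained one and 2 changed direction. The calls for the change of ANXA10, BTG2, CA9, CCDC102B and GRHL3 were lost with a pseudocount of 0.1 alone, those of RRM2 and TFDP1 with mitochondrial genes left out alone, and those of HSPA1B and SNORA9 with no filter on low values alone. Those of OVOL1, CYTB, AKR1C3, CASP6, CDH1 and BCL2L12 were lost in 14, 13, 10, 9, 9 and 8 settings. With a pseudocount of 0.1 the change of BTG2 was -0.05 (adjusted p = 0.647). With a pseudocount of 0.1 the change of LGALS7B was 0.42 (adjusted p = 0.653) and that of EBI3 was 0.37 (adjusted p = 0.599), against -1.0 and -0.79 as reported; both genes have values near 0 in some groups, and the cause was not tested. Of 74 list counts at the depleted state 10 moved by over 1.5 times in some setting. In the controls 11 of 74 did, and for the change 24 of 74 did. At the depleted state TMM-type scaling raised lower members from 8 to 16 of the MYC list, from 9 to 19 of the nuclear respiratory list and from 7 to 11 of the lysosome list. Without p53-/- depleted replicate 2, 1 heat shock gene was lower instead of 3. FPKM without read counts limits what can be said of genes near 0.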
